A study of Homo sapiens with 16 samples.

Results

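Expression of 10 enzyme genes of serine, one-carbon, asparagine and proline synthesis was examined in gut and liver cells grown on a microfluidic chip with or without free fatty acids. The genes are PSAT1, PHGDH, PSPH, SHMT1, SHMT2, MTHFD1, MTHFD2, ASNS, PYCR1 and ALDH18A1, taken by symbol from the 60623 genes listed. PSAT1 was put at their head because it had passed the test for free fatty acids in HepG2 cells, averaged over both cultures. Every value of the 10 genes in that contrast is therefore a description here and supports nothing.

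The study placed Caco-2 cells, a line from a human colon tumour, and HepG2 cells, a line from a human liver tumour, in separate chambers of a chip. A line was cultured either by itself (mono-culture) or with medium circulating between both lines (co-culture). FFA groups received a mixture of palmitic and oleic acid in the ratio 1 to 2, 1 mM in total, in medium with fatty acid-free albumin, and control groups received none. The 8 groups were Caco-2 mono-culture control, Caco-2 mono-culture FFA, Caco-2 co-culture control, Caco-2 co-culture FFA and the same 4 of HepG2, with 2 libraries each. The labels give 1 day of treatment. All sample titles also begin with LTC, an abbreviation that the labels do not explain. The study also examined a longer treatment, which its main sequencing figure shows. The length of treatment of these libraries is therefore not certain. Control cultures are labelled only as untreated, so a medium difference other than the fatty acids and the FFA treatment itself cannot be told apart. The study describes its mRNA-seq experiments as independent, but no label ties a library to a culture, and p-values measure the spread between these libraries, which may be technical.

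Serine is made from a glycolytic intermediate in a short pathway. PHGDH oxidizes 3-phosphoglycerate, PSAT1 transfers an amino group to the product, and PSPH removes the phosphate to leave serine. SHMT1 in the cytosol and SHMT2 in mitochondria split serine into glycine and a one-carbon unit carried by folate, which MTHFD1 in the cytosol and MTHFD2 in mitochondria interconvert for the synthesis of nucleotides. ASNS makes asparagine from aspartate, and ALDH18A1 and PYCR1 catalyse the first and last steps from glutamate to proline. Several of these genes are known targets of ATF4, a transcription factor that is translated when amino acids are scarce or unfolded proteins accumulate. In the liver, serine and one-carbon units also feed the methionine cycle and the synthesis of phospholipids.

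Sequence from RefSeq (GRCh38.p14) is shown for the promoters of PSAT1 and ASNS. The pair was picked by its matches in a motif search, so the rarity of these matches supports nothing. The table of promoters held 7 of the 10 members, all but PSPH, SHMT2 and PYCR1. The first stretch is the 250 bases before the start of PSAT1, at chr9:78296875-78297124 on the plus strand, with CCAAT in capitals. The second is 30 bases before one start of ASNS, at chr7:97872458-97872487 on the minus strand, with the core of a C/EBP-ATF response element in capitals, the motif through which ATF4 acts.
PSAT1 upstream: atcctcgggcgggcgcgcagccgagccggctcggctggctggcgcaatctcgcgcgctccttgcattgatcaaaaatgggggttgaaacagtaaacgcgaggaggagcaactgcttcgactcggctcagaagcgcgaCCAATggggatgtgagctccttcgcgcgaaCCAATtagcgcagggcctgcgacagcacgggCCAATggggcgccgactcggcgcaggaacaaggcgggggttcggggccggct
ASNS site: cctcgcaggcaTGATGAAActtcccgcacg
The letters TGATGNAA were searched on both strands of the 250 bases upstream and occurred in ASNS as TGATGAAA, with its first base 68 bases before the start. Of all 35116 promoters in the table, 3.14% held these letters. CCAAT, also searched on both strands and chosen after the sequences had been seen, occurred 3 times before PSAT1, and 2.93% of all promoters held it at least 3 times. An E-box, CACGTG, was found 15 bases before the start of MTHFD1 and 136 bases before that of ALDH18A1, and in 6.34% of all promoters. The CCAAT and E-box searches do not overlap with TGATGNAA in these windows. Matches describe letters in these windows and no factor was measured on them.

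Expression is given as CPM, a gene's share of the reads in its library brought to 1 fixed total per library. Caco-2 libraries held 353871 to 974654 reads and HepG2 libraries 49634 to 1657430 reads. The shallowest libraries were both HepG2 co-culture FFA libraries, with 147096 and 49634 reads, so that 1 read stood for 6.80 and 20.1 CPM there. Of 8 HepG2 markers, 6 were higher in every HepG2 library than in every Caco-2 library, the exceptions being APOA1 and TTR. Transferrin (TF) lay between 806 and 3405 CPM in HepG2 and between 0 and 5.94 CPM in Caco-2. Of 8 markers chosen for Caco-2, CDH17 alone separated the lines, and CDX1, a transcription factor of intestinal cells, was at 0 in all 8 Caco-2 libraries. All 10 members passed the filter on low values in both lines (a group mean of 1 CPM or more), among 15454 genes tested in Caco-2 and 14430 in HepG2.

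**Figure D1:**
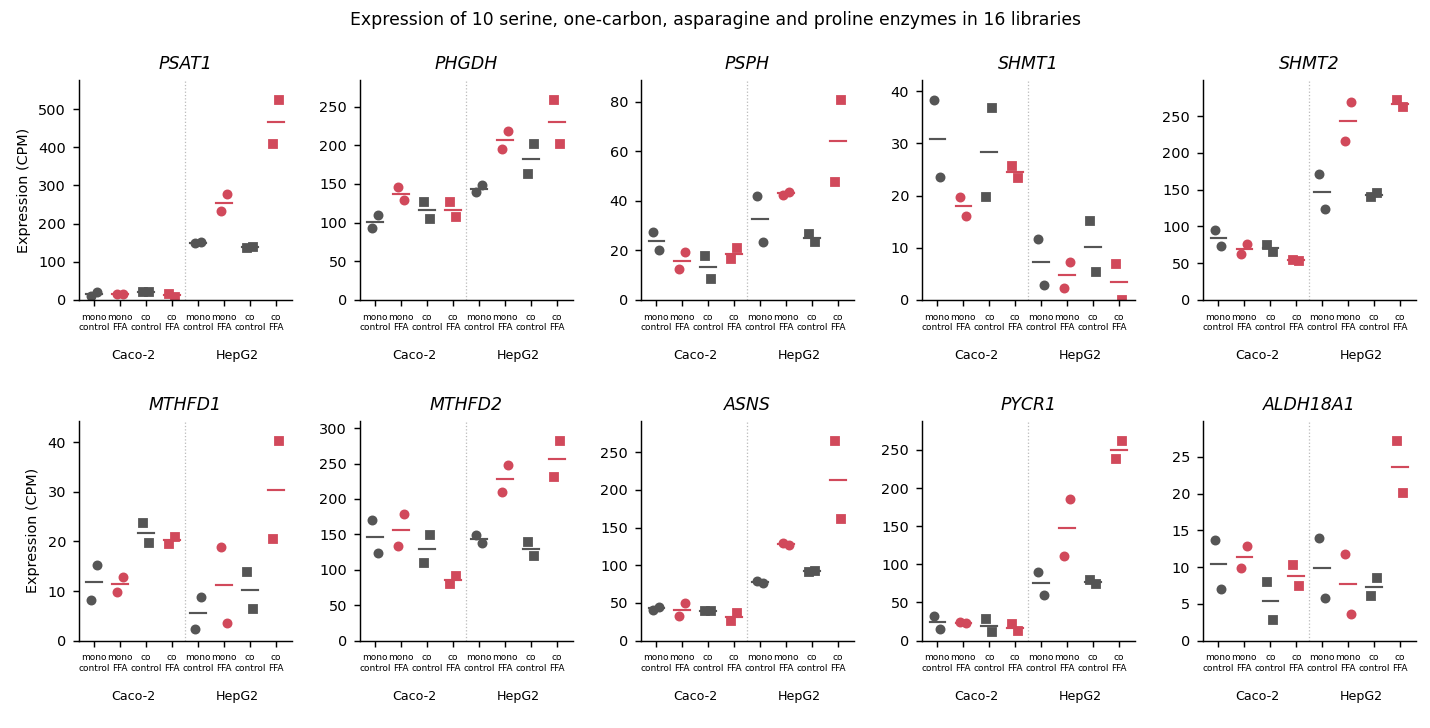
Expression of the 10 members in CPM (vertical axes, each from 0) in the 8 groups (horizontal axes). Points are the 2 libraries of a group, circles for mono-culture and squares for co-culture, black for control and red for FFA, and lines are group means. In HepG2, PSAT1 means run from 138 to 466 CPM, whereas all 8 Caco-2 libraries lie at or below 21.8 CPM.

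PSAT1 (phosphoserine aminotransferase 1; ENSG00000135069, chromosome 9, 78297125 to 78330093, plus strand, GENCODE 44) was present in every library and differed more between lines than any other member. In HepG2, 149 and 151 CPM were measured without FFA in mono-culture, and 136 and 139.5 CPM in co-culture. The 4 control libraries thus lay close together, with group SDs of 1.39 and 2.25 CPM. With FFA the libraries gave 233 and 276 CPM in mono-culture and 408 and 524 CPM in co-culture. All 4 FFA libraries were above all 4 controls, and both co-culture FFA libraries were above both mono-culture FFA libraries. The order of HepG2 group means was co-culture FFA (466 ± 82.0 CPM, SD, n = 2), mono-culture FFA (255 ± 30.6 CPM), mono-culture control (149.5 ± 1.39 CPM) and co-culture control (138 ± 2.25 CPM), and no neighbours in this order overlapped. The gap between both control groups lay within counting error.

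In Caco-2, PSAT1 rested on few reads. In mono-culture its level was 10.9 and 19.98 CPM in control libraries and 14.8 and 14.5 CPM with FFA. In co-culture it was 21.8 and 19.8 CPM in control libraries and 16.4 and 8.62 CPM with FFA. These values came from 4 to 17 reads per library, and each group overlapped its neighbour in the order of means. In HepG2 the counts were 26 to 226 reads per library, and both co-culture FFA libraries held 60 and 26 PSAT1 reads.

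**Figure D2:**
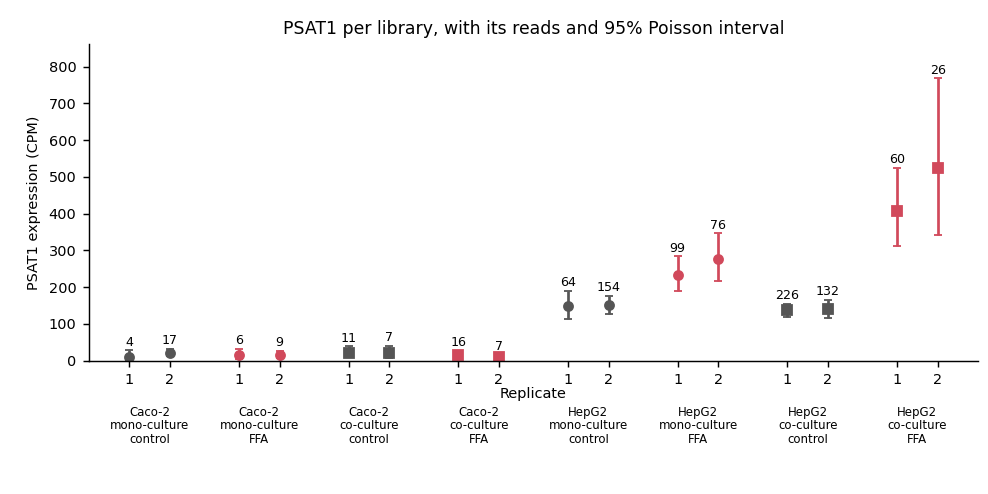
PSAT1 expression in CPM (vertical axis) in each of the 16 libraries (horizontal axis, by group and replicate). Bars are 95% Poisson intervals for counting error only, numbers above them are the reads counted, and colours and symbols are black for control, red for FFA, circles for mono-culture and squares for co-culture. The interval of HepG2 co-culture FFA replicate 2, 342 to 768 CPM from 26 reads, is the widest.

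The first comparison is FFA against control in HepG2, the contrast that PSAT1 was picked from. Averaged over both cultures, the log2 difference of PSAT1 was 1.25 (SE 0.14), which is a 2.38-fold higher level with FFA. It was the only 1 of 10 members past an adjusted p of 0.05 with limma, where 0.0762% of all genes tested were called, 8 of them higher and 3 lower (4 and 49 after median-ratio rescaling). Without mono-culture control replicate 1, co-culture control replicate 2 or co-culture FFA replicate 2 none of the members passed, and without co-culture FFA replicate 1, 6 did, in a fit that called 11.9% of all genes. Of the 10, 9 had a positive difference, and the median over the 10 was 0.84 on the log2 scale, where the median of all genes was -0.07. For 6 members, PSAT1, PSPH, SHMT2, MTHFD2, ASNS and PYCR1, all 4 FFA libraries were above all 4 controls, as was so for 4.16% of all genes. Within mono-culture 7 members were separated in this way (20.2% of all genes) and within co-culture 8 (17.4%). Nothing is read from these counts, since the contrast was used in the choice.

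Within serine synthesis, PHGDH, the first enzyme (chromosome 1, 119648411 to 119744218, plus strand), showed a smaller difference than PSAT1 in the HepG2 libraries. In mono-culture its level was 139 and 149 CPM without FFA and 196 and 218 CPM with FFA. In co-culture it was 162 and 202 CPM without FFA and 258 and 201 CPM with FFA. The groups were apart in mono-culture but overlapped in co-culture, and the averaged log2 difference was 0.43 (SE 0.15). PSPH, the last enzyme (chromosome 7, 56011051 to 56051604, minus strand), gave 23.5 and 41.8 CPM in mono-culture control and 42.4 and 43.7 CPM in mono-culture FFA. In co-culture it gave 26.6 and 23.2 CPM in control and 47.6 and 80.6 CPM with FFA, the latter from 11 reads in both libraries together. The groups did not overlap in either culture, and the averaged difference was 0.86 (SE 0.30). In mono-culture the nearest control and FFA libraries, at 41.8 and 42.4 CPM, held 18 reads each, so that separation is within counting error.

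Of the one-carbon enzymes, both mitochondrial ones, SHMT2 (chromosome 12, 57229573 to 57234935, plus strand) and MTHFD2 (chromosome 2, 74186172 to 74217565, plus strand), were higher with FFA in HepG2. SHMT2 averaged 147 ± 34.4 CPM in mono-culture control and 243 ± 37.1 CPM in mono-culture FFA, while the co-culture means were 143 ± 2.99 CPM without and 267 ± 7.08 CPM with FFA (SD, n = 2). MTHFD2 averaged 143 ± 7.59, 229 ± 26.7, 129 ± 14.1 and 257 ± 36.0 CPM in the same order. No FFA library of either gene overlapped a control library, and the averaged log2 differences were 0.81 (SE 0.15) and 0.82 (SE 0.14). Their cytosolic counterparts, SHMT1 (chromosome 17, 18327860 to 18363563, minus strand) and MTHFD1 (chromosome 14, 64388031 to 64463457, plus strand), were near the limit of detection in HepG2. SHMT1 lay between 0 and 15.1 CPM and was under 3 reads in 4 of the 8 libraries, and MTHFD1 lay between 2.32 and 40.3 CPM and was under 3 reads in 3 of them. Their averaged differences, -1.13 (SE 0.88) and 1.13 (SE 0.66), had intervals that reached from -3.16 to 0.89 and from -0.38 to 2.64.

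ASNS (asparagine synthetase; chromosome 7, 97851677 to 97872542, minus strand) was measured at 78.9 and 76.3 CPM without FFA and 129.6 and 127 CPM with FFA in HepG2 mono-culture. In co-culture it was at 91.7 and 92.0 CPM without FFA and at 265 and 161 CPM with FFA. Replicates were nearly equal in 3 of these groups and far apart in co-culture FFA, and every FFA library was above every control library. The gene overlaps on the same strand with AC079781.5, a noncoding gene, which was listed at almost the same level in each HepG2 library (for example 258 and 161 CPM in co-culture FFA). Over all 16 libraries ASNS held 674 reads and AC079781.5 held 658, and how reads of both were assigned is not given in the sources used here. The 2 genes together averaged 155 ± 3.77 and 258 ± 4.80 CPM in mono-culture control and FFA, and 184 ± 1.12 and 423 ± 142 CPM in co-culture control and FFA. The level of ASNS is therefore uncertain. Its mean with FFA was 1.66 times that without in HepG2 mono-culture and 2.32 times in co-culture.

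PYCR1, the last enzyme of proline synthesis (chromosome 17, 81932384 to 81942412, minus strand), gave 90.5 and 59.6 CPM in HepG2 mono-culture control and 111 and 186 CPM in mono-culture FFA. In co-culture it gave 79.6 and 74.0 CPM without FFA and 238 and 262 CPM with FFA. No FFA library fell below a control library, and the averaged log2 difference, 1.32 (SE 0.22), was the only one above that of PSAT1. ALDH18A1, which starts proline synthesis (chromosome 10, 95605941 to 95656711, minus strand), lay between 3.64 and 27.2 CPM and was under 3 reads in 2 of the 8 HepG2 libraries. Its log2 difference was -0.39 (SE 0.76) in mono-culture and 1.58 (SE 0.76) in co-culture, where 5 reads were counted in both FFA libraries together.

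**Figure D3:**
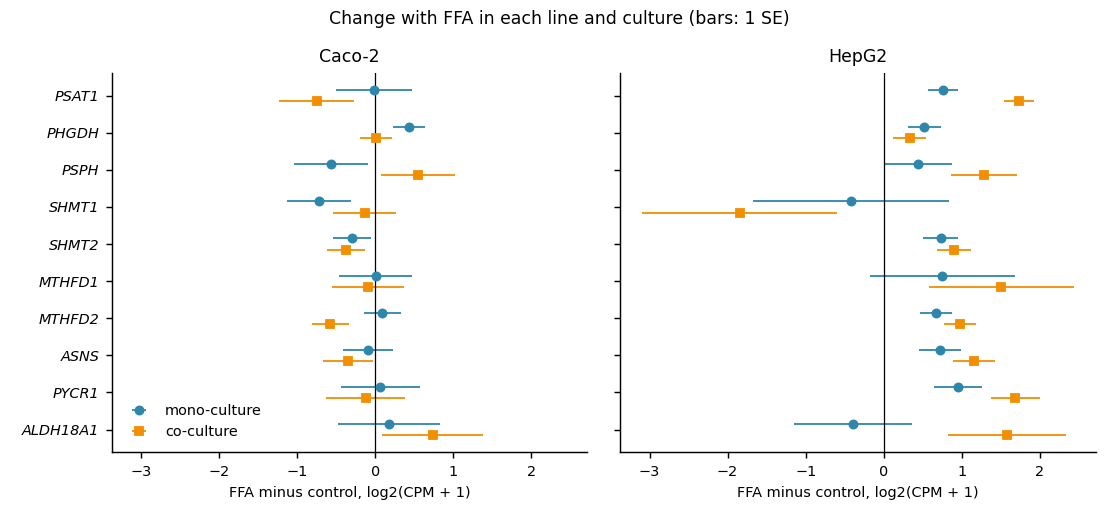
Difference between FFA and control libraries on the log2(CPM + 1) scale (horizontal axes) for the 10 members (vertical axis) in Caco-2 (left) and HepG2 (right). Circles are mono-culture, squares are co-culture, and bars are 1 SE from limma with 2 libraries per group. In HepG2 the PSAT1 points lie at 0.76 and 1.74, and in Caco-2 at -0.02 and -0.75.

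The same comparison in Caco-2 was not used in the choice and could be tested. With FFA none of the 10 members passed, and neither did any of the 15454 genes (background 0%), although 750 genes had an unadjusted p under 0.05. None of the 10 was among those 750, none had its 4 FFA libraries wholly above or below the 4 controls (1.15% and 0.744% of all genes did), and 8 of the 10 had a negative difference. The median over the members was -0.13 on the log2 scale and that of all genes 0.04. PSAT1 differed by -0.38 (SE 0.34), with a 95% interval from -1.11 to 0.35. For PHGDH the interval ran from -0.08 to 0.54 and for SHMT2 from -0.71 to 0.03.

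Within Caco-2 co-culture, 4 members were lower in both FFA libraries than in both controls, namely PSAT1, SHMT2, MTHFD2 and ASNS. MTHFD2 gave 150 and 109 CPM in control and 91.2 and 80.0 CPM with FFA. SHMT2 gave 75.3 and 65.0 CPM in control and 54.4 and 53.0 CPM with FFA. Such a separation of 2 against 2 libraries in the lower direction was found for 14.9% of all genes, and no member passed the test in this contrast. In mono-culture, PSPH and SHMT1 were lower and PHGDH higher in both FFA libraries, where 10.3% and 16% of all genes were.

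Whether co-culture changed the effect of FFA was tested by the interaction of both factors. In HepG2, PSAT1 was 1.70 times as high with FFA as without in mono-culture and 3.38 times as high in co-culture, and the log2 difference between these effects was 0.98 (SE 0.27, interval 0.36 to 1.60). Its adjusted p was 0.676 with limma (unadjusted p = 0.00645 with the same model), and no gene passed for this interaction (0% of 14430 genes). On recovered reads the value was 0.57 with edgeR, and 0.43 with every library thinned to 49634 reads. Without HepG2 co-culture FFA replicate 1 it was 1.16 and passed in limma with an adjusted p of 0.0318, in a fit that called 7.49% of all genes and in which the lone library of that group is assumed to vary like the other groups. Over all alternatives the adjusted p ranged from 0.0318 to 1.00. PSAT1 had been picked by a test on these same HepG2 libraries, and the same spread between libraries sets the SE of its interaction. That choice favours a small SE. The interval and all p-values of the PSAT1 interaction, with every library or with 1 left out, are therefore descriptions and support nothing. The interactions of the other 9 members ranged from -1.43 (SHMT1) to 1.98 (ALDH18A1), both in genes at a few reads per library. In Caco-2 the interaction of PSAT1 was -0.73 (SE 0.68), and none of the 10 members or 15454 genes passed (0%).

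Co-culture against mono-culture, averaged over control and FFA libraries, asked how the other line's presence changed the enzymes. In HepG2 none of the 10 passed, as was so for all 14430 genes (background 0%). PSAT1 was 0.37 higher on the log2 scale in co-culture (SE 0.14, adjusted p = 0.628 with limma) and ASNS 0.46 higher (SE 0.19, adjusted p = 0.631 with limma). Both differences were larger among the FFA libraries than among the controls. The SE and p-value of PSAT1 rest on the libraries it was picked from, so they too are descriptions. Without FFA, the PSAT1 mean in co-culture was 0.92 times that in mono-culture and its libraries were below (as for 12.4% of all genes), within counting error. With FFA it was 1.83 times as high and its libraries were above (as for 12.8%). For PYCR1 the corresponding ratios were 1.02 and 1.69, for PSPH 0.76 and 1.49, and for ASNS 1.18 and 1.66. For SHMT2 and MTHFD2 they stayed between 0.90 and 1.12. The control libraries are shared by these ratios and those of FFA above, so neither is a check of the other.

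In Caco-2 co-culture, no member passed either, where 0.453% of all genes did. MTHFD1, the cytosolic enzyme that interconverts folate one-carbon units, came nearest to a clean separation. Its libraries gave 8.22, 15.3, 9.90 and 12.8 CPM in mono-culture and 19.8, 23.8, 19.5 and 20.9 CPM in co-culture. These values came from 3 to 13 reads per mono-culture library and 7 to 19 reads per co-culture library. Every co-culture library was above every mono-culture library, as held for 4.25% of all genes. The nearest libraries, at 15.3 and 19.5 CPM, held 13 and 19 reads. Their Poisson intervals overlapped, so the gap between them is within counting error. The log2 difference of MTHFD1 was 0.84 (SE 0.33, adjusted p = 0.348 with limma). MTHFD2, in mitochondria, differed in the other direction by -0.51 (SE 0.17, adjusted p = 0.230 with limma), with means of 107 CPM in co-culture and 151 CPM in mono-culture. Its libraries overlapped, and it passed with edgeR on recovered reads (adjusted p = 0.0120), where 1.92% of all genes did.

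The level of each member was also compared between the lines. Over all 16 libraries, 8 of 10 members passed with limma, 7 higher and 1 lower in HepG2, where 30.3% of all 17544 genes tested passed and 12.5% were higher. PSAT1, SHMT2, ASNS and PYCR1 did not overlap between the lines, with each of the 8 HepG2 libraries above each of Caco-2 (4.3% of all genes), and SHMT1 was lower (5.97%). This average includes the HepG2 FFA libraries on which PSAT1 was chosen, so the 8 control libraries, an alternative added after the data were seen, are given with it. In them 6 of 10 members passed, 5 higher and 1 lower, where 27.6% of 15632 genes passed and 12.5% were higher. PSAT1 was 136 to 151 CPM in the 4 HepG2 control libraries and 10.9 to 21.8 CPM in the 4 of Caco-2. The log2 difference was 2.96 (SE 0.20, adjusted p = 3.0e-06 with limma), a 7.79-fold higher level in HepG2, and over all 16 libraries it was 3.78 (SE 0.17, adjusted p = 7.3e-10 with limma).

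PYCR1 was next, with 59.6 to 90.5 CPM against 11.3 to 32.8 CPM in control libraries and a log2 difference of 1.86 (SE 0.32). ASNS and SHMT2 were 2.03-fold and 1.87-fold higher in HepG2 controls, and PHGDH was 1.49-fold higher. These 4 genes and PSAT1 did not overlap between the lines in the control libraries, where 12.1% of all genes were wholly higher and 14.8% wholly lower in HepG2. PSPH passed over all 16 libraries, with 1.12 (SE 0.23), but not in controls, with 0.68 (SE 0.30, adjusted p = 0.124 with limma). MTHFD2 passed over all 16 libraries, with 0.53 (SE 0.12), and in controls its means were 136 CPM in HepG2 and 138 CPM in Caco-2, a difference of -0.00095 with an interval from -0.34 to 0.34.

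SHMT1 was the member that was lower in HepG2, with 2.94 to 15.1 CPM against 19.8 to 38.3 CPM in control libraries and a log2 difference of -1.81 (SE 0.46, adjusted p = 0.0142 with limma). SHMT2, the mitochondrial enzyme of the same reaction, was 123 to 172 CPM in those HepG2 libraries and 65.0 to 95.8 CPM in those of Caco-2. Cytosolic and mitochondrial enzymes thus differed in opposite directions between the lines for the SHMT pair. For the MTHFD pair, MTHFD1 differed by -1.11 (SE 0.43, adjusted p = 0.0839 with limma) and did not pass. ALDH18A1 was 5.86 to 13.9 CPM in HepG2 controls and 2.82 to 13.7 CPM in those of Caco-2 and did not pass, with an interval from -0.80 to 1.18.

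**Figure D4:**
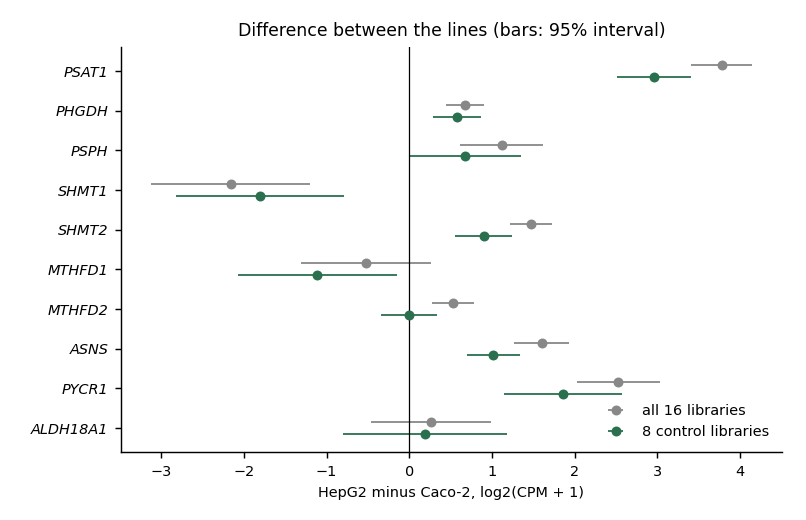
Difference between HepG2 and Caco-2 on the log2(CPM + 1) scale (horizontal axis) for the 10 members (vertical axis). Grey points average all 16 libraries, green points the 8 control libraries, and bars are 95% intervals from limma. PSAT1 lies at 3.78 and 2.96, MTHFD2 at 0.53 and near 0, and SHMT1 on the negative side at -2.16 and -1.81.

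Other genes of the pathways around the members were taken from 5 lists of 71 genes, of which 64 were tested in HepG2 and 59 in Caco-2. The lists were 26 folate and glycine enzymes, 10 of the methionine cycle and transsulfuration, 19 other amino acid enzymes, 9 amino acid carriers and 7 stress factors. With FFA in HepG2, none of the 64 passed with limma, where 0.0762% of all genes did, and 11 had an unadjusted p under 0.05, as did 13.8% of all genes. With edgeR and with DESeq2 1 listed gene passed, beside 4.37% and 2.38% of all genes. Their median difference was 0.29 on the log2 scale, and by list it was 0.03 for folate and glycine enzymes, 0.55 for the methionine cycle and transsulfuration, 0.45 for other amino acid enzymes, 0.55 for carriers and 0.34 for stress factors.

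Among these genes TRIB3, a pseudokinase induced by ATF4, had the largest difference of those named, 1.69 (SE 0.34, adjusted p = 0.134 with limma), with 91.9 to 262 CPM in FFA libraries and 35.6 to 56.0 CPM in controls. CBS, which joins serine and homocysteine, had 1.41 (SE 0.43) and 7.06 to 60.4 CPM with FFA against 5.28 to 11.6 CPM. GOT2, the mitochondrial aspartate aminotransferase, had 1.25 (SE 0.39), and DLD, a subunit of the glycine cleavage system, had 0.99 (SE 0.27). SLC3A2, the heavy chain of several amino acid carriers, was 108 to 197 CPM with FFA and 79.0 to 106 CPM without. Of the 64 genes, 6 were higher in every FFA library than in every control (4.16% of all genes) and 1 lower (3.36%). These were TRIB3, GOT2, DLD and SLC3A2 and, named after their values were seen, AHCY, GOT1 and, as the lower one, MTR. The lowest GOT2 value with FFA, 20.15 CPM (highest control 16.2 CPM), was 1 read of HepG2 co-culture FFA replicate 2. The 60.4 CPM of CBS was 3 reads of the same library, the floor of detection. DDIT3, a stress factor also called CHOP, overlapped, with 74.8 to 201 CPM against 77.8 to 129 CPM. Of the remaining genes named for this contrast, MTHFD2L, CTH, OAT and SLC1A5 had differences of 0.90, 0.81, 0.78 and 0.39, and none passed.

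With FFA in Caco-2, none of the 59 listed genes passed either (background 0%, 4 at an unadjusted p under 0.05, as for 4.85% of all genes). The genes named by the rule there were GART, ATIC, AHCY, ASL, BCAT2, SLC3A2, SLC38A1, CHAC1 and DDIT3, with differences between -0.82 (GART) and 0.81 (ASL). In Caco-2 co-culture 2 of the 59 passed, where 0.453% of all genes did. ASL, an enzyme of the urea cycle that releases arginine, rose by 1.82 (SE 0.36, adjusted p = 0.0478 with limma). It went from 2.74 to 17.3 CPM in mono-culture libraries to between 23.8 and 39.0 CPM. Its lowest value, 2.74 CPM, was 1 read of Caco-2 mono-culture control replicate 1. SLC3A2 fell by 0.84 (SE 0.12, adjusted p = 0.00540 with limma), from 321 to 408 CPM to between 148 and 260 CPM. Without Caco-2 mono-culture control replicate 2 neither passed. CHAC1, a glutathione-degrading enzyme induced by stress, was at 5.65 to 13.9 CPM in co-culture and 14.5 to 54.7 CPM in mono-culture and did not pass (-1.60, SE 0.41, adjusted p = 0.121 with limma). The differences of DLD, TYMS, AHCY, BCAT2, SLC38A1, SLC1A5 and DDIT3 lay between -0.34 and 0.52. In HepG2 co-culture none of the 64 passed with limma (2 at an unadjusted p under 0.05, as for 7.72% of all genes), and the genes named by the rule, MTHFD2L, MTHFS, CBS, MAT2B, GLUD1, GLUL, SLC1A5, SLC38A1, DDIT3 and TRIB3, differed by -0.44 to 0.96.

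Between the lines, 17 of 66 listed genes were higher and 11 lower in HepG2 over all 16 libraries, beside 30.3% of all genes called. Of the folate and glycine enzymes 9 were higher, namely ALDH1L2, AMT, DMGDH, FTCD, GCSH, MTHFD1L, MTHFD2L, MTHFS and SARDH, and GGH was lower. MTHFD1L, a mitochondrial folate enzyme, was at 48.9 ± 18.01 CPM in HepG2 and 13.9 ± 3.61 CPM in Caco-2 (SD, n = 8), whereas ALDH1L2, AMT, FTCD and SARDH were at 0 in some libraries of both lines and DMGDH was at 0 in all 8 of Caco-2. Of the methionine cycle and transsulfuration enzymes BHMT2 (at 0 in all 8 Caco-2 libraries), CBS and CTH were higher and AHCY lower, with CBS at 20.5 ± 21.2 CPM in HepG2 and 1.60 ± 1.94 CPM in Caco-2. PRODH, which starts the breakdown of proline, and OAT, ornithine aminotransferase, were lower in HepG2, with PRODH at 0.132 ± 0.375 against 9.59 ± 3.72 CPM and OAT at 35.7 ± 21.8 against 144 ± 39.4 CPM. ASS1 and BCAT2 were also lower, and GPT2 was higher. Among carriers SLC1A4 and SLC6A9, both at 0 in some libraries of both lines, were higher and SLC3A2 lower. Among stress factors ATF4 and TRIB3 were higher and DDIT3, CHAC1 and ATF3 lower. All of these averages include the HepG2 FFA libraries, where TRIB3 averaged 152 CPM against 43.1 CPM in HepG2 controls. For the listed genes, the difference between the lines in control libraries alone is not reported here.

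The genes whose pattern over the 16 libraries was most like that of PSAT1 were found by the root mean square difference of log2 values centred within each line, over the 2027 genes that reached 50 CPM on average. They were RPN1, a subunit of the oligosaccharyltransferase of the endoplasmic reticulum (0.232), CCT7, a subunit of a cytosolic chaperonin (0.284), CCNC, cyclin C (0.287), ATP6V1G2-DDX39B (0.311) and MRPL3, a mitochondrial ribosomal protein (0.311). The median gene had 0.625. ATP6V1G2-DDX39B shares exons with DDX39B, so its reads are uncertain. RPN1 averaged 89.1, 164, 101 and 294 CPM in HepG2 mono-culture control, mono-culture FFA, co-culture control and co-culture FFA. Among the members of the set, SHMT2 ranked at 110, ASNS at 114, MTHFD2 at 226, PHGDH at 295 and PYCR1 at 320, and the other 4 were under the level required. No p is attached to these ranks, since the libraries share their groups and depth.

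As a sum, the 10 members took 792 ± 77.9 CPM in HepG2 mono-culture control, 1277 ± 150 CPM in mono-culture FFA, and in co-culture 813 ± 2.49 CPM without and 1804 ± 41.8 CPM with FFA. In Caco-2 the same sums were 492 ± 55.5, 498 ± 46.2, 464 ± 8.30 and 389 ± 9.99 CPM. The summed HepG2 markers also differed among the HepG2 groups, with 41864, 45206, 49264 and 62054 CPM in the same order, and their part in the result was not tested. Mitochondrial genes took 6.29% to 10.6% of HepG2 and 2.73% to 3.97% of Caco-2 reads. Of 18 listed pseudogenes of the members, 4 held 1 read each and the others none.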

How the data were processed

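Polyadenylated RNA of both lines was amplified as barcoded cDNA and read on an Oxford Nanopore device. The extraction label names myoblasts, whereas the other labels name the lines given here. The submitters' processing notes name minimap2 2.22 and GRCh38. The study's text describes other aligners for its mRNA-seq, and which applied to these reads, and whether strand was used in counting, is not given in the sources used here. The values deposited by the authors are named TPM, but 99.6% to 100% of them (within 0.1 read) are whole multiples of 1 step per library, so they are CPM that were not divided by gene length, and reads were recovered from the step. Levels of different genes are not compared for that reason.

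For each line, genes with a group mean of 1 CPM or more were fitted with limma 3.58.1 in R 4.3.3 (trended prior, 4 group means, residual degrees of freedom 4, prior ones 10.3 for Caco-2 and 4.32 for HepG2) on log2(CPM + 1), which understates changes of low genes. The lines were compared in 1 fit of 16 libraries (prior degrees of freedom 5.60). P-values were two-sided and Benjamini-Hochberg adjusted over all genes fitted, with a threshold of 0.05. Alternatives used edgeR 4.0.16 and DESeq2 1.42.0 on recovered reads, no filter or one at a mean of 10 CPM, a pseudocount of 0.1, other scalings, a constant prior, a replicate block, thinning, fewer libraries and each library left out. The fit to the 8 control libraries was added after the data were seen. The fits were also run on simulated data with changes planted only in well-expressed genes. The low members are not covered by that run, and nothing is read from it. The floor of detection was 3 reads, and intervals and floors cover counting error only, since PCR reads are not independent molecules.

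The members and lists were chosen with earlier results of these data known. Named were all members, listed genes that passed, and otherwise the 2 per list with the largest difference at 20 CPM or more. Some genes that this rule names are not reported here. Replicates differed by more than counting noise, with chi-square per degree of freedom between 1.52 and 2.85. Positions are those of GENCODE 44. Exons of SHMT1, SHMT2, MTHFD1, MTHFD2 and PYCR1 overlap genes on the opposite strand, of which ZBTB25 (26 reads, MTHFD1) and AC006030.1 (41 reads, MTHFD2) held the most.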

Additional observations from a re-analysis of the deposited data

Results flagged for a closer look

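For 5 members the FFA effect had opposite signs in the 2 lines within a culture, with every FFA library of HepG2 above its controls and every FFA library of Caco-2 below. Of the 12340 genes tested in both lines, 4.55% showed this pattern in co-culture and 2.33% in mono-culture. These differences between lines were not tested, and each rests on 2 libraries per group. In co-culture the log2 FFA effect in HepG2 minus that in Caco-2 was 2.49 for PSAT1, 1.55 for MTHFD2, 1.51 for ASNS and 1.275 for SHMT2. The nearest Caco-2 control and FFA libraries there held 7 and 16 reads of PSAT1 (19.8 and 16.4 CPM). For ASNS they held 14 and 30 reads (39.6 and 37.0 CPM). The Poisson intervals of the nearest Caco-2 libraries overlapped for PSAT1, ASNS, MTHFD2 and SHMT2, so that part of the pattern is within counting error. In mono-culture it was 1.01 for PSPH, where the nearest HepG2 control and FFA libraries held 18 reads each and those of Caco-2 lay at 19.98 and 19.3 CPM. The HepG2 part of each value comes from the contrast in which PSAT1 was chosen, the HepG2 co-culture FFA libraries are the 2 shallowest, and the part of depth in these values was not tested.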

How the results depend on the processing

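In HepG2 with FFA 1 member passed, PSAT1 (0.0762% of all genes). The count was 0 with a pseudocount of 0.1 (0%), a constant prior variance (0%), thinning to 49634 reads (0%) or mono-culture libraries only (0.157%). It was 2 with quantile normalization (0.534%) or edgeR (4.37%), and 3 with a mean of 10 CPM (0.562%) or DESeq2 (2.38%). With each library left out it ranged from 0 (without mono-culture control replicate 1, co-culture control replicate 2 or co-culture FFA replicate 2) to 6 (without co-culture FFA replicate 1). Of the listed pathway genes 0 passed there, 1 with quantile normalization, edgeR, DESeq2 or mono-culture libraries only, and 0 to 7 with a library left out. ALDH18A1 differed there by -0.39 in mono-culture libraries only. In HepG2 co-culture 0 to 1 members and 0 to 7 listed genes passed with a library left out, and for the HepG2 interaction 0 to 1 members. The highest of these counts came without co-culture FFA replicate 1, where 8.84% of all genes passed for co-culture and 7.49% for the interaction, and 11.9% for FFA.

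In Caco-2 co-culture 1 member, MTHFD2, passed with edgeR (1.92% of all genes). Of the listed genes 2 passed with limma there (0.453% of all genes). The count was 0 with a pseudocount of 0.1 (0.0518%), a constant prior (0%) or thinning (0%), and 1 with DESeq2 (0.589%). It was 4 without filter (0.885%), with a mean of 10 CPM (4.97%), with a replicate block (1.36%) or in control libraries only (0.647%). With edgeR it was 5 (1.92%). With FFA in Caco-2 it was 0 in all of these alternatives that were fitted, beside at most 0.108% of all genes. For both contrasts the counts varied with a library left out, in fits that leave 1 library in a group. Between the lines 8 members passed (30.3% of all genes), and 6 in the 8 control libraries (27.6%). The count was 3 with thinning and 2 in mono-culture control libraries only. The share of all genes in those fits is not given here, so nothing is read from their counts. The cause was not tested, except that these fits hold fewer libraries or reads.

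Of 1400 values of the log2 differences of the members under these alternatives, 1250 kept their direction and side of the threshold. These include values that moved by less than the spread where no test was made or the difference was 0. Outside FFA in HepG2, 109 changed sign. All of those but the values of MTHFD2 between the lines belong to differences that did not pass. For FFA in HepG2, where sign changes were not counted, ALDH18A1 (0.59) kept its sign in 17 of 19 alternatives. For FFA in Caco-2, the difference of PHGDH (0.23) became -0.76 with thinning. That of PSPH (-0.0090) became -0.26 to 0.24 with a library left out. That of MTHFD1 (-0.047) became 1.24 with thinning, 0.0041 in mono-culture libraries only and -0.25 to 0.16 with a library left out. That of MTHFD2 (-0.24) became 0.092 with thinning and 0.092 in mono-culture libraries only. That of PYCR1 (-0.025) became 0.067 in mono-culture libraries only and -0.33 to 0.28 with a library left out. For co-culture in Caco-2, the difference of PSAT1 (0.093) became -0.00083 with median-ratio rescaling, -0.056 with quantile normalization, -0.058 with edgeR, -0.040 with DESeq2, -0.77 with thinning and -0.12 to 0.31 with a library left out. That of PHGDH (-0.022) became 0.19 with thinning, 0.19 in control libraries only and -0.091 to 0.047 with a library left out. That of SHMT1 (0.15) became -3.78 with thinning, -0.15 in control libraries only and -0.070 to 0.36 with a library left out. That of ALDH18A1 (-0.62) became 1.101 with thinning. For the interaction in Caco-2, the difference of PSPH (1.12) became -2.68 with thinning. That of SHMT1 (0.58) became -2.20 with thinning. That of SHMT2 (-0.078) became 0.064 with median-ratio rescaling, 0.094 with quantile normalization, 0.060 with edgeR, 0.022 with DESeq2, 0.71 with thinning and -0.26 to 0.11 with a library left out. That of MTHFD1 (-0.10) became 0.035 with median-ratio rescaling, 0.14 with quantile normalization, 0.26 with edgeR, 0.15 with DESeq2 and -0.51 to 0.31 with a library left out. That of ASNS (-0.26) became -0.57 to 0.051 with a library left out. That of PYCR1 (-0.19) became 0.020 with quantile normalization and -0.80 to 0.43 with a library left out. That of ALDH18A1 (0.56) became -2.20 with thinning and -0.054 to 1.17 with a library left out. For co-culture in HepG2, the difference of PSAT1 (0.37) became -0.12 in control libraries only. That of PSPH (0.096) became -0.090 with median-ratio rescaling, -0.076 with quantile normalization, -0.11 with edgeR, -0.12 with DESeq2, -1.096 with thinning, -0.32 in control libraries only and -0.11 to 0.30 with a library left out. That of SHMT1 (-0.20) became 0.42 with edgeR, 0.26 with DESeq2, 1.34 with thinning, 0.51 in control libraries only and -0.94 to 0.54 with a library left out. That of SHMT2 (0.058) became -0.13 with median-ratio rescaling, -0.0049 with quantile normalization, -0.11 with edgeR, -0.10 with DESeq2, -0.028 in control libraries only and -0.061 to 0.18 with a library left out. That of MTHFD2 (0.0081) became -0.18 with median-ratio rescaling, -0.060 with quantile normalization, -0.19 with edgeR, -0.18 with DESeq2, -0.11 with thinning, -0.15 in control libraries only and -0.063 to 0.080 with a library left out. That of PYCR1 (0.43) became -0.10 with thinning. That of ALDH18A1 (0.68) became -0.31 in control libraries only. For the interaction in HepG2, the difference of SHMT1 (-1.43) became -2.91 to 0.052 with a library left out. That of SHMT2 (0.17) became -0.080 with median-ratio rescaling, -0.20 with edgeR, -0.041 with DESeq2, -0.50 with thinning and -0.067 to 0.41 with a library left out. That of MTHFD1 (0.76) became -0.039 with edgeR and -0.29 to 1.80 with a library left out. That of MTHFD2 (0.31) became -0.12 with edgeR. Between the lines, the difference of MTHFD2 (0.53) became -0.016 in mono-culture controls only and -0.00095 in the 8 control libraries. That of ALDH18A1 (0.26) became -0.55 with thinning and -0.10 in mono-culture controls only. The cause of these changes was not tested. Over all genes 11 passed for FFA in HepG2, 8 higher and 3 lower. The higher and lower counts were 4 and 49 with median-ratio rescaling, 47 and 30 with quantile normalization, 32 and 10 with a mean of 10 CPM, 13 and 6 with the replicate block, 47 and 583 with edgeR and 48 and 296 with DESeq2, and with a library left out 0 to 1688 genes passed. The median of all genes there was -0.07, -0.25 with median-ratio rescaling and 0.15 with a mean of 10 CPM. The deviations of same-numbered replicates had a mean correlation of 0.0120 in Caco-2 and 0.00332 in HepG2 over all genes, and of 0.151 (-0.017 to 0.29) and 0.0529 (-0.10 to 0.12) over genes at 100 CPM or more. Since some pairs were under 0 on both, the numbers were not taken to pair samples, and the replicate block left every count of members as it was. At 20.1 CPM per read in the shallowest library, SHMT1, MTHFD1 and ALDH18A1 were under the floor of 3 reads there.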
